A study of Homo sapiens with 4 samples.

Results

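The genes described here are 45 members of the human nuclear receptor family, chosen by name, at which FOXC1 binding was mapped in bladder cancer cells. To find out where FOXC1, a forkhead transcription factor, sits at these genes, FOXC1 peaks were counted in a window that held the gene body and 20 kb to either side of it. These windows held 90 of 22405 peaks in replicate 1 and 161 of 41789 peaks in replicate 2. Peaks of the replicates that overlapped were merged into shared regions, and 53 of 13238 shared regions lay in a receptor window. Of the 45 genes, 22 (48.9%) held at least 1 shared region, against 33.0% of all protein-coding genes. A further 15 held peaks but no shared region, and 8 held no peak in either list. The last 2 counts were not made over all protein-coding genes, so they describe the receptors only.

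ChIP-seq had been performed on J82, a human bladder cancer cell line kept in DMEM with 10% FBS, with the anti-FOXC1 antibody D8A6. There were 2 biological replicates of FOXC1 ChIP and 2 inputs, which are sonicated chromatin sequenced without the antibody, all read as 75-bp single ends. The deposited peak lists were called in each ChIP replicate against input, and no other condition was measured with them. Each peak carried a fold enrichment, which is the pileup of ChIP fragments at the summit over the local background, each with 1 added, and a −log10 q, its significance after correction for multiple testing. Whole reads over each summit were worked out from these values, and the ChIP libraries came to about 43200000 reads in replicate 1 and 41500000 in replicate 2. Over all peaks, the median fold enrichment was 3.02 (18 reads over the summit) in replicate 1, while replicate 2 had 3.63 (23 reads). Replicate 2 therefore held more peaks, with higher values, from a library of similar size. A q-value above 0.05 was listed for 31.3% of replicate 1 peaks and 14.3% of replicate 2 peaks. With 1 condition and a list of genes chosen by name, the counts below are descriptions, set beside the same counts over all 20163 protein-coding genes, and no test was made between them.

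Nuclear receptors are transcription factors built from a conserved DNA-binding domain and a ligand-binding domain, and many of them are switched by small lipophilic ligands such as steroids, thyroid hormone, retinoic acid, vitamin D, bile acids and oxysterols. Many bind DNA as partners of a retinoid X receptor, steroid receptors bind as homodimers, and orphan receptors act without an established ligand or are governed mainly by their own expression. In the urothelium, retinoic acid receptors are known for their part in differentiation. Forkhead factors are known to bind near nuclear receptors in hormone-responsive tissues, where they help to open chromatin.

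The sequences under the summits of the 6 receptor regions with the best ranks are shown because they lead the family by rank, though not by every value. The rank of a region is its place among all 13238 shared regions, ordered by −log10 p in the replicate where it stood lower. Each line gives the plus strand of GRCh37 (hg19) over the summit and 50 bp to either side, 5′ to 3′. Capitals mark a match on either strand to the forkhead consensus RTAAAYA, where R is A or G and Y is C or T.
RXRA, chr9:137326829-137326929: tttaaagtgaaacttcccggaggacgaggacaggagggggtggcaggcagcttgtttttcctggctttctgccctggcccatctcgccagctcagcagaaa
NR1H4, chr12:100948589-100948689: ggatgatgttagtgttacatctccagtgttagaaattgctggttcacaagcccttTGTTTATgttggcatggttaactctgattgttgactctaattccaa
NR6A1, chr9:127541729-127541829: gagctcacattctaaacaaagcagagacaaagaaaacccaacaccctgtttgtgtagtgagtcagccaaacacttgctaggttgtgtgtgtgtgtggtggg
NR1D2, chr3:23987303-23987403: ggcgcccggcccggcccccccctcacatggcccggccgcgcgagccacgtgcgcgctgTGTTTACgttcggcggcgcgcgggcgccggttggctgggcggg
NR2F1, chr5:92943116-92943216: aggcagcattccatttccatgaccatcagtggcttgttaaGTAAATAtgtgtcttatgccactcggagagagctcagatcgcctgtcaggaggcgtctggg
NR2E1, chr6:108521959-108522059: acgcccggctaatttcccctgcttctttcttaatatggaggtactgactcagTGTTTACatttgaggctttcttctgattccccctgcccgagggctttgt
A forkhead match lay near the summit in 4 of these 6 sequences. The RXRA sequence held no match to any of the sequences searched. The NR6A1 sequence held no forkhead match but, in lower case, tgagtca, a form of the AP-1 consensus TGASTCA, where S is C or G. The NR2E1 sequence held an AP-1 match, tgactca, next to its forkhead match. The NR1D2 sequence was rich in G and C, and its forkhead match stood among such bases.

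At least 1 shared region was found in the windows of 22 of 45 receptor genes, or 48.9%, against 33.0% of all protein-coding genes. A replicate 1 peak was found at 30 receptor genes (66.7%, against 47.0% of protein-coding genes) and a replicate 2 peak at 35 (77.8%, against 66.2%). When peaks were required to reach a −log10 q of 5 in both replicates, 19 receptor genes (42.2%) still held a shared region, against 20.2% of protein-coding genes. At least 5 shared regions were found at 2 receptor genes (4.44%), THRB and RARB, against 1.53% of protein-coding genes. The RARB gene body spans 910 kb, and on its canonical transcript of 170 kb, with the same flanks, RARB held 3 shared regions in place of 7, while THRB kept 8. The receptor shares were above the background in each of these counts, by a margin that differed between the counts. Long genes have more room for a peak, and receptor windows were longer than usual, with a median of 93.4 kb against 67.2 kb for protein-coding genes and with 22.2% against 10.1% over 200 kb. Counted by length, receptor windows held 6.64 shared regions per Mb (53 in 7.98 Mb), and the windows of all protein-coding genes held 5.28 per Mb (8691 in 1646 Mb).

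Among genes of similar window length, the receptor share was the higher in the 3 shorter classes and the lower in the longest. It was 30.0% against 19.3% for windows under 60 kb (3 of 10 receptor genes), 42.9% against 29.9% between 60 and 100 kb (6 of 14), and 63.6% against 48.9% between 100 and 200 kb (7 of 11). Over 200 kb, 6 of 10 receptor genes (60%) held a shared region, against 69.6% of protein-coding genes. Across genes, the number of shared regions rose weakly with window length, with a Spearman's rho of 0.28 over the 45 receptor genes and 0.37 over all protein-coding genes. Genes are not independent replicates, and windows of neighbouring genes can share regions, so these values only describe the lists. Length alone did not order the receptors. RORA, an orphan receptor with a 781 kb window, held 1 shared region, ESRRG with 675 kb held none, and NR3C2, the mineralocorticoid receptor, held no peak at all in 406 kb.

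**Figure D1:**
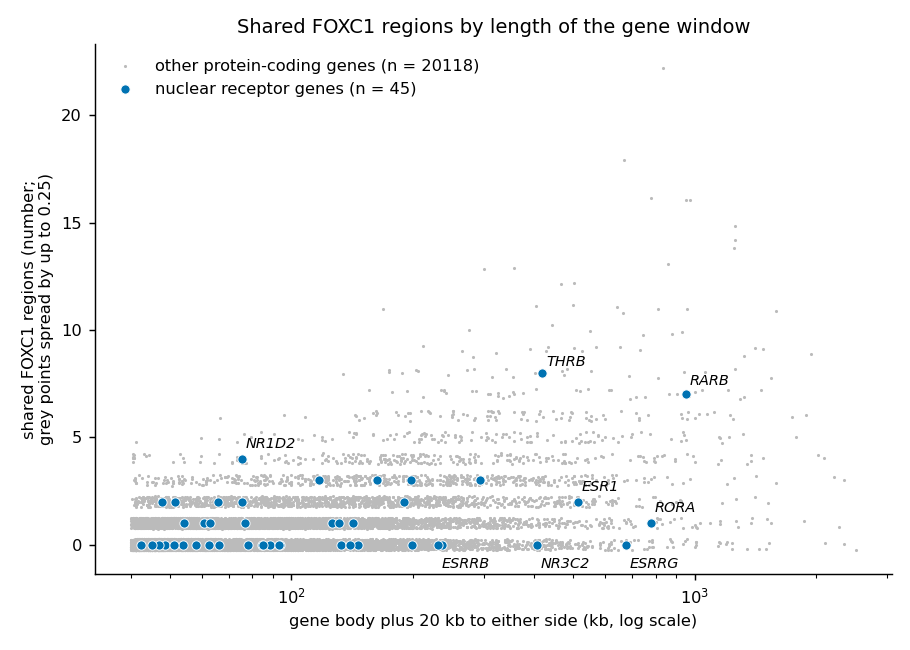
Number of shared FOXC1 regions (vertical axis) against the length of the gene body plus 20 kb to either side (horizontal axis, kb, log scale) for the 45 nuclear receptor genes (blue) and the other protein-coding genes (grey, spread vertically to avoid overlap). THRB with 8 and RARB with 7 regions stand highest among the receptors, NR1D2 holds 4 in a short window, and ESRRG and NR3C2 hold none in long windows.

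The 53 receptor regions had fold enrichments like those of the other 13185 shared regions. In replicate 1 the receptor median was 3.87 (range 1.69 to 24.4), against 3.79 elsewhere, and in replicate 2 it was 6.04 (2.47 to 73.4), against 6.71. Median reads over the summit were 26 and 44, against 24 and 45. Fold enrichment was higher in replicate 2 at 49 of 53 receptor regions (92.5%, 95% confidence interval 81.8 to 97.9%, exact binomial), against 91.9% of other regions, and the log2 ratio of replicate 2 to replicate 1 had a median of 0.76 (SD 0.51 over regions) against 0.75 (SD 0.52). The difference between the replicates was thus of the same size at receptor genes as elsewhere. The median gap between the summits of both replicates was 30 bp in receptor regions and 28 bp in the others. A −log10 q of 5 in both replicates was reached by 29 receptor regions (54.7%, interval 40.4 to 68.4%) and by 50.8% of the others. In 12 receptor regions the replicate 1 peak had a q-value above 0.05, and in 0 regions the replicate 2 peak did. This was not counted over the other shared regions. Intervals were computed over regions and cover counting error only, and regions that lie near each other need not be independent. Reads made by PCR are not independent molecules either.

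**Figure D2:**
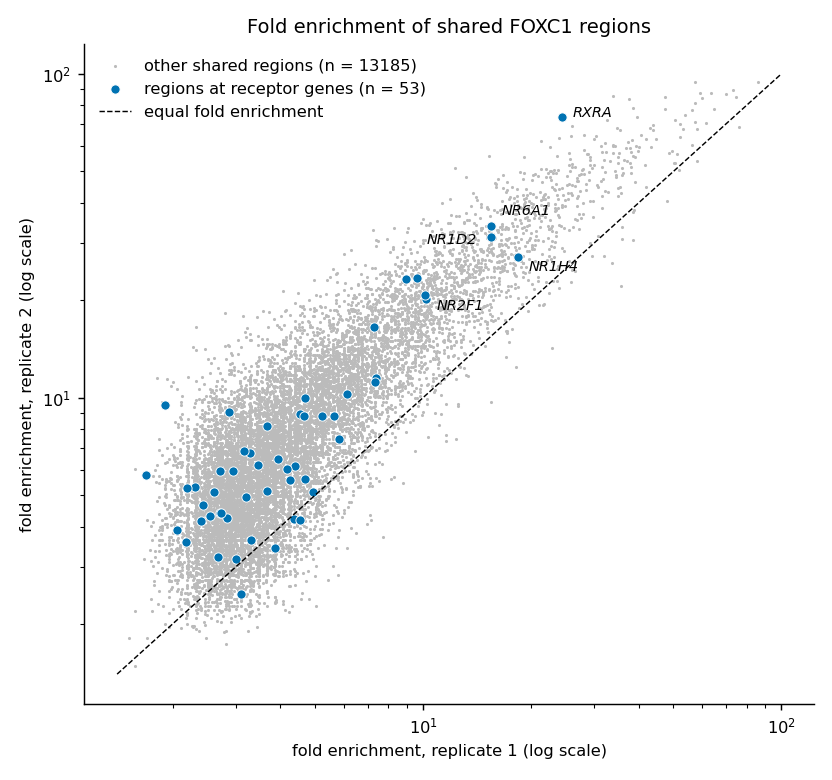
Fold enrichment in replicate 2 (vertical axis, log scale) against replicate 1 (horizontal axis, log scale) for the 53 shared regions at receptor genes (blue) and the other 13185 shared regions (grey). The dashed line marks equal values, 49 of 53 receptor regions lie above it, and the RXRA region at 24.4 and 73.4 stands apart from the rest of the receptor regions.

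The retinoid X receptors, the common heterodimer partners of the family, included the region with the highest values. An intronic region of RXRA (chr9:137326340-137327320), 48.9 kb downstream of the nearest annotated RXRA start, was enriched 24.4-fold in replicate 1 and 73.4-fold in replicate 2 (48.9 ± 34.7, mean ± SD, n = 2). The −log10 q was 285 and 533, with 286 and 385 reads over the summit, and the region ranked 51 of 13238. It was the highest receptor region in both replicates, and its values differed between them by 3.01-fold in enrichment but by 1.35-fold in reads. The local background there was 2.59 times the genome-wide level in replicate 1 and at that level in replicate 2, and fold enrichment divides by this background. Another RXRA intronic region (chr9:137305570-137306265), 27.9 kb from the nearest start, had 3.66 and 8.20, with a −log10 q of 6.42 and 21.2, 29 and 42 reads, and a forkhead match. The remaining RXRA region, 3.29 kb from a start, had 2.73 and 4.39. RXRG held 2 replicate 1 peaks and no replicate 2 peak, and RXRB held no peak.

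Thyroid hormone and retinoic acid receptors held 17 of the 53 regions, at 3 of 5 genes. THRB, the beta thyroid hormone receptor, held 10 peaks in replicate 1, 17 in replicate 2 and 8 shared regions, 7 of them inside the gene body. Its strongest region (chr3:24279716-24280424, intronic) lay 72.9 kb upstream of the nearest annotated start and had a fold enrichment of 7.40 and 11.5 (9.44 ± 2.87, n = 2), a −log10 q of 21.3 and 47.4, and 41 and 75 reads. The neighbouring intronic region at chr3:24295930-24296656 had 6.14 and 10.3, with a −log10 q of 17.8 and 39.7 and 41 and 67 reads. Both thus lay within the gene body, far from any start of THRB. An intronic region at chr3:24406488-24407462 had 5.63 and 8.80, with a −log10 q of 13.9 and 35.3 and 35 and 67 reads, and a region 14.5 kb upstream of the gene (chr3:24551525-24552087) had 3.95 and 6.47, with a −log10 q of 6.46 and 20.3 and 26 and 49 reads. The 8 THRB regions ranged from 2.31 to 7.40 in replicate 1 and from 3.63 to 11.5 in replicate 2, all 8 were higher in replicate 2, and 3 held a forkhead match. No THRB region came near the fold enrichment of RXRA, and the gene stood out by the number of its regions.

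RARB, a retinoic acid receptor whose gene is the next receptor along the chromosome, held 12 peaks in replicate 1, 22 in replicate 2 and 7 shared regions. Its strongest region by rank (chr3:25499358-25499880) lay 169 bp upstream of an annotated start, inside an intron of longer transcripts, with a fold enrichment of 4.38 and 6.14 (5.26 ± 1.24, n = 2), a −log10 q of 7.87 and 23.5, and 27 and 60 reads. All 7 regions were higher in replicate 2, 4 held a forkhead match, and 5 missed a −log10 q of 5 in replicate 1 or 2. In a pair of RARB regions the replicates differed more. The region at chr3:24879998-24880508 was enriched 1.91-fold in replicate 1 and 9.49-fold in replicate 2, with 25 and 61 reads. The region at chr3:25512444-25513249 had 1.69 and 5.75, with 22 and 31 reads. In both, the local background in replicate 1 was 3.02 times the genome-wide level, against 1.31 and 1.08 times in replicate 2, so the ratios of reads (2.44 and 1.41) were smaller than the ratios of fold enrichment (4.96 and 3.39).

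THRA, the alpha thyroid hormone receptor, held 2 shared regions. The stronger (chr17:38228273-38228992, intronic) lay 367 bp downstream of an annotated start and had 7.36 and 11.2 (9.30 ± 2.75, n = 2), with a −log10 q of 19.2 and 37.3, 37 and 58 reads, and a forkhead match. The other also fell in the window of its neighbour NR1D1, whose gene overlaps THRA, and was counted for both genes. RARA held 2 peaks and RARG 1 peak, all in replicate 2 only.

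THRB, RARB and NR1D2 are neighbours on chromosome 3, between positions 23986777 and 25639423, and together they held 19 of the 53 shared regions (35.8%) in 1.44 Mb, or 13.2 per Mb. The other 42 receptor genes held 34 regions in 6.54 Mb, or 5.20 per Mb. All protein-coding windows, with no gene left out, held 5.28 per Mb. The 3 genes held the most shared regions and were set apart after their counts were seen. The density without them had to fall, and its closeness to 5.28 per Mb is not a result. Of those 42 genes, 19 (45.2%) held a shared region. The density over all receptor windows thus rested in part on these 3 genes, while the share of genes with a region changed less without them. Windows of protein-coding genes on chromosome 3 as a whole held 7.03 shared regions per Mb, and 43.3% of those genes held a region. The local background at shared regions, relative to the genome-wide level, had medians in replicates 1 and 2 of 1.29 and 1.33 at the 3 genes, 1.51 and 1.58 at chromosome 3 genes, and 1.28 and 1.30 at all protein-coding genes. Its part in the number of regions was not tested.

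**Figure D3:**
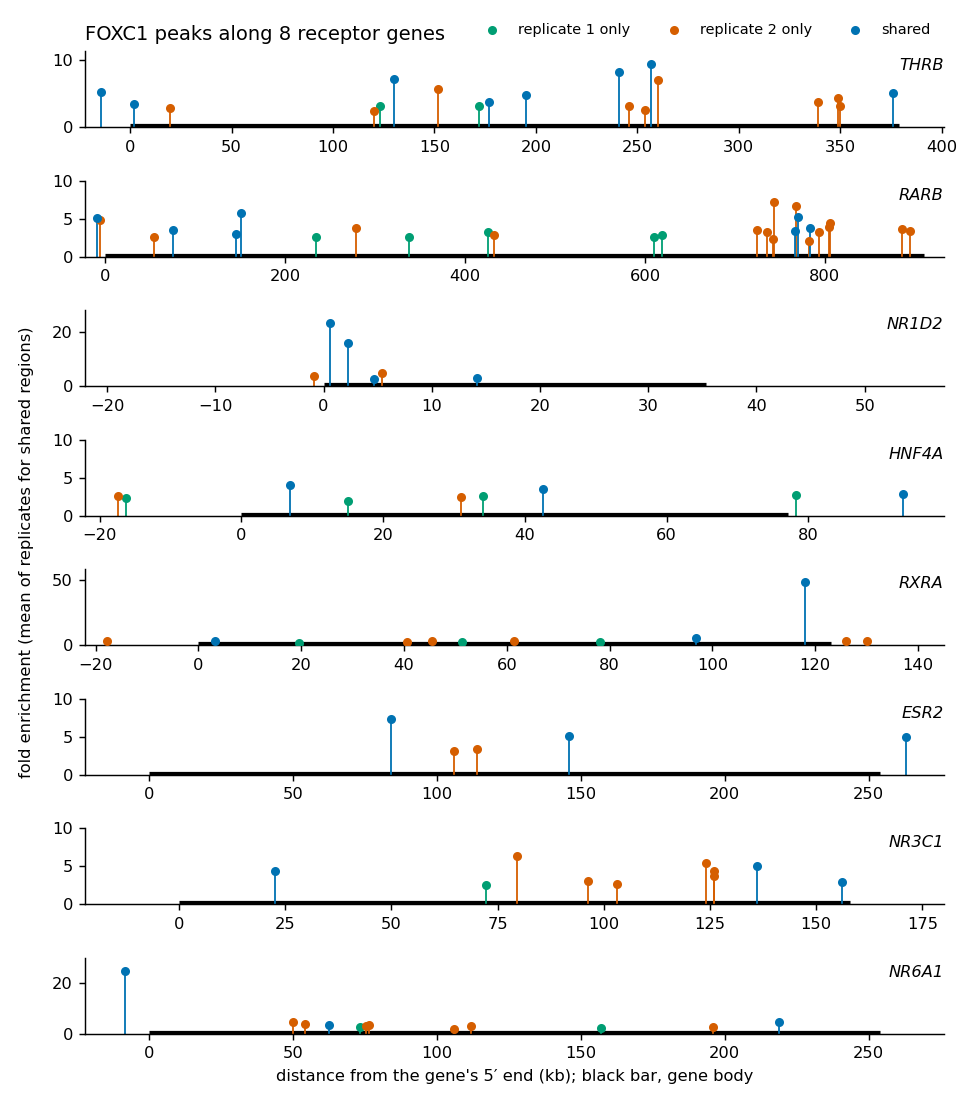
FOXC1 peaks along the 8 receptor genes with most shared regions, with distance from the 5′ end of the gene in kb on the horizontal axis (black bar, gene body) and fold enrichment on the vertical axis (mean of the replicates for shared regions). Shared regions (blue) and peaks found in replicate 1 only (green) or replicate 2 only (orange) are spread along THRB and RARB, stand near the start at NR1D2, and include a tall region near the 3′ end of RXRA.

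Clock receptors of the REV-ERB group, which repress transcription in a daily rhythm, each held a region close to a start. At NR1D1 the region close to its own start was the weaker of its regions. NR1D2, which encodes REV-ERB beta, held 4 shared regions from 4 replicate 1 and 6 replicate 2 peaks, all within the gene body. The strongest (chr3:23986978-23988335) lay 259 bp upstream of an annotated start, within an intron of a longer transcript, and reached into NKIRAS1, a gene that overlaps it. Its fold enrichment was 15.5 and 31.4 (23.4 ± 11.3, n = 2), with a −log10 q of 70.6 and 172, 84 and 164 reads, and rank 539. A further region 1433 bp downstream of a start (chr3:23988683-23989608) had 8.98 and 23.3, with a −log10 q of 28.4 and 114, 47 and 122 reads, and an AP-1 match. A start of NKIRAS1 lay nearer to it, at 963 bp. The other 2 regions were weak, at 3.01 and 3.18 and at 3.10 and 2.47. NR1D2 thus had a strong region and a fairly strong region around its start, and the lower values lay further inside the gene.

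NR1D1, which encodes REV-ERB alpha, held 2 shared regions. The stronger (chr17:38270772-38271292) lay 14.2 kb upstream of the start, nearer to the start of MSL1, and had 7.28 and 16.5 (11.9 ± 6.50, n = 2), with a −log10 q of 20 and 71.2 and 39 and 90 reads. A start of an annotated gene that is not protein-coding lay 643 bp from this stronger region. The other region lay 667 bp upstream of the NR1D1 start and had 2.71 and 5.92, with 13 and 30 reads. The stronger region held a forkhead match and the region near the NR1D1 start did not. RORA, an orphan receptor that activates from the same DNA elements as the REV-ERBs, held 1 intronic region at 5.81 and 7.44, and RORB held 3 peaks in replicate 2 only.

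Sensors of lipids, bile acids and xenobiotics and the vitamin D receptor held 4 shared regions, at 4 of 8 genes. An intronic region of NR1H4, the bile acid receptor FXR (chr12:100948238-100949020), had 18.4 and 27.2 (22.8 ± 6.27, n = 2), with a −log10 q of 119 and 229 and 133 and 240 reads, and ranked 293. It lay 51.4 kb downstream of the nearest NR1H4 start and 18822 bp from the start of GAS2L3, so the gene body that held it and the nearest start belonged to different genes. PPARD, a fatty acid sensor, held a region just beyond its 3′ end (chr6:35395639-35396237) at 4.65 and 8.77, with a −log10 q of 7.29 and 24.2, 23 and 45 reads, and an AP-1 match. The regions of NR1H3, an oxysterol receptor, and of VDR, the vitamin D receptor, were among the weaker. Fold enrichments were 2.19 and 5.26 at NR1H3 and 2.61 and 5.12 at VDR. The NR1H3 region lay within DDB2, 75 bp from a DDB2 start and 13.8 kb upstream of the nearest NR1H3 start. On the −log10 q scale, its replicate 1 peak reached only 0.315, and its replicate 2 peak 9.64. NR1I2, the xenobiotic sensor PXR, held 1 replicate 1 and 2 replicate 2 peaks that did not overlap. PPARA held 1 and NR1H2 held 2 peaks in replicate 2 only, and NR1I3 held no peak.

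Orphan receptors of the testicular, tailless and COUP-TF groups held 6 shared regions, at 4 of 7 genes, with fold enrichments from low to high for the family. NR2F1, which encodes COUP-TF1, held a region beyond its 3′ end (chr5:92942829-92943551), 15.5 kb from its start, at 10.2 and 20.2 (15.2 ± 7.12, n = 2), with a −log10 q of 41.6 and 99.1 and 64 and 115 reads. The other NR2F1 region lay 338 bp upstream of a start at 3.87 and 3.44, a pair in which replicate 1 was the higher. NR2E1, which encodes the tailless homologue TLX of neural stem cells, held a region beyond its 3′ end (chr6:108521645-108522369), 24.7 kb from the start, at 10.1 and 20.7 (15.4 ± 7.55, n = 2), with a −log10 q of 33.5 and 95.3 and 51 and 108 reads. Both distal regions held a forkhead match and lay outside the annotated gene body.

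NR2E3, a receptor of photoreceptor cells, held 2 regions, both upstream of the gene. The region 1368 bp upstream of the start (chr15:72083180-72083931) had 9.65 and 23.4 (16.5 ± 9.73, n = 2), with a −log10 q of 33.0 and 114 and 52 and 122 reads. The region 12.1 kb upstream (chr15:72072450-72073120) lay within THSD4 and had 5.23 and 8.77, with a −log10 q of 9.60 and 24.2 and 26 and 45 reads. Neither held a forkhead match, and the nearer held AGGTCA, the hexamer that many nuclear receptors bind. NR2F2, which encodes COUP-TF2, held a region in an untranslated exon 276 bp from a start at 4.37 and 4.23. NR2C1 and NR2C2 held peaks in both lists that did not overlap, and NR2F6 held none.

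Steroid receptors and their relatives, counted as groups, held few regions for the length of their windows, but this did not hold for each gene. ESR2, the estrogen receptor beta, held 3 shared regions, of which the strongest (chr14:64720394-64720904, intronic, 6625 bp downstream of a start) had 4.69 and 9.96 (7.33 ± 3.72, n = 2), with a −log10 q of 9.30 and 37.5 and 29 and 65 reads. The other 2 lay inside SYNE2, a gene that overlaps ESR2, and 1 of them was 428 bp from a SYNE2 start. ESR1, the estrogen receptor alpha, held 2 intronic regions in a window of 513 kb, at 4.26 and 5.55 and at 2.88 and 9.06. The estrogen-related receptors ESRRA, ESRRB and ESRRG held peaks in both lists and no shared region. Estrogen and estrogen-related receptor windows held 2.83 shared regions per Mb, the lowest of the 10 groups.

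NR3C1, the glucocorticoid receptor, held 4 replicate 1 peaks, 9 replicate 2 peaks and 3 shared regions. This was 1.52 regions per 100 kb, against 0.599 in protein-coding windows of 100 to 200 kb. Its strongest region by rank (chr5:142678801-142679223, intronic, 90.6 kb from the nearest start) had 3.28 and 6.74 (5.01 ± 2.44, n = 2). The −log10 q there was 4.02 and 19.7, with 23 and 46 reads, and the region held a forkhead match. The region at chr5:142792226-142792671 had 4.55 and 4.19, with a −log10 q of 8.01 and 9.04 and a forkhead match. It was the only NR3C1 region to reach a −log10 q of 5 in both replicates. The remaining region had 2.06 and 3.89. The best of the 3 ranked 6166 of 13238. NR3C2 and PGR, the mineralocorticoid and progesterone receptors, held no peak in either list.

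The HNF4 receptors, known for liver and gut expression, included HNF4A, with 7 replicate 1 peaks, 5 replicate 2 peaks and 3 shared regions. Its strongest region by rank (chr20:43026775-43027213, intronic, 2895 bp upstream of an annotated start) had 2.84 and 4.26 (3.55 ± 1.0, n = 2), with a −log10 q of 4.82 and 11.8 and 35 and 46 reads. The local background there was 2.81 and 2.40 times the genome-wide level in replicates 1 and 2. HNF4A was 1 of 5 genes with fewer peaks in replicate 2 than in replicate 1, beside RXRG, NR2F1, NR2F2 and NR5A1, whereas 28 genes had more. The whole lists held 41789 peaks in replicate 2 and 22405 in replicate 1, and this direction was not counted over all protein-coding genes. HNF4G held no peak.

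Immediate-early receptors of the NR4A group, which are induced by stimuli and need no ligand, held 1 shared region. It lay in an intron of NR4A1, 569 bp downstream of a start, at 3.68 and 5.15 with 18 and 26 reads. NR4A3 held 4 peaks and NR4A2 held 2, all in replicate 2 only, and the strongest of NR4A3 had a fold enrichment of 6.46 with 40 reads and lay beyond the 3′ end. Among the NR5, NR6 and NR0 orphan receptors, NR6A1, the germ cell nuclear factor, held 3 regions. Its strongest (chr9:127541306-127542271) lay 8.19 kb upstream of the start, inside OLFML2A and 2342 bp from an OLFML2A start, and had 15.5 and 33.9 (24.7 ± 13.0, n = 2), with a −log10 q of 73.0 and 191, 87 and 177 reads, and rank 514. This was the second highest mean of any receptor region, after RXRA. NR5A2, known for its part in bile acid and cholesterol metabolism, held 2 intronic regions, of which the stronger (chr1:200141476-200142069) had 4.53 and 8.92 (6.72 ± 3.10, n = 2), with a −log10 q of 9.77 and 37.5, 32 and 70 reads, and a forkhead match. NR5A1 held 1 replicate 1 peak, and NR0B1 and NR0B2, which lack a usual DNA-binding domain, held none.

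**Figure D4:**
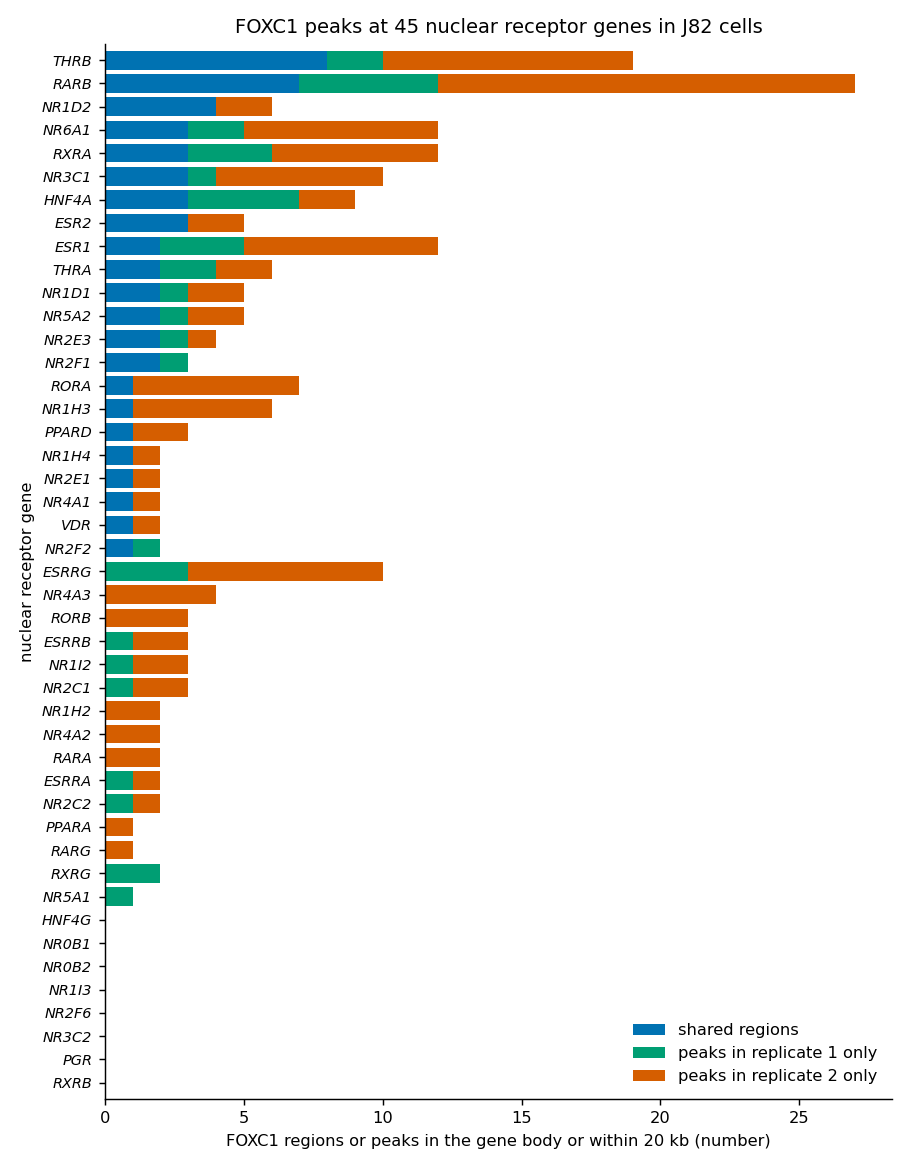
Number of FOXC1 regions or peaks in the gene body or within 20 kb of it (horizontal axis) for each of the 45 nuclear receptor genes (vertical axis), as shared regions (blue), peaks in replicate 1 only (green) and peaks in replicate 2 only (orange). THRB with 8, RARB with 7 and NR1D2 with 4 hold the most shared regions, 15 genes hold only unshared peaks, and 8 hold none. Genes with only unshared peaks or none were not counted over all protein-coding genes.

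Inside the receptor gene body lay 39 of the 53 regions (73.6%), but gene bodies also made up most of the windows. The density was 6.24 regions per Mb over gene bodies alone, against 6.64 per Mb over the whole windows. Introns held 35 of the 53 regions (66.0%), untranslated exons 4, the upstream flank 9 and the downstream flank 5. Of the 53, 81.1% lay in the body of some protein-coding gene, against 78.9% of other shared regions in windows of protein-coding genes. Of all 53, 30 (56.6%) lay 10 kb or more from the nearest start of their own gene, and 21 (39.6%) were both inside the gene and that far from a start. Further, 6 (11.3%) lay inside another protein-coding gene, and for 42 (79.2%) the nearest protein-coding start belonged to a receptor gene. These distances and shares were not counted over other shared regions, so they describe the receptor regions only. A start of any annotated gene lay within 2 kb of 14 regions (26.4%, interval 15.3 to 40.3%), against 20% of all other shared regions and 25.9% of those in windows of protein-coding genes. Counted by gene, 9 of 45 receptor genes (20%) had a shared region within 2 kb of their own start, against 8.64% of protein-coding genes. Receptor genes have more annotated starts, with a median of 8 against 5. With the start of the canonical transcript alone, 5 genes (11.1%) remained, against 4.83%, and these were NR1D1, NR1D2, NR2F1, NR4A1 and THRB.

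The forkhead consensus was present within 50 bp of the summit in 26 of 53 receptor regions (49.1%, interval 35.1 to 63.2%), against 48.7% of other shared regions. At control positions 500 bp downstream it was present in 4 (7.55%, 2.09 to 18.2%), against 10.8%. Receptor regions thus held the forkhead sequence about as often as shared regions elsewhere, and in both sets more often at summits than beside them. GTAAACA, a stricter form contained in RTAAAYA, was present in 11 receptor regions (20.8%), as in 20.8% of the others. The forkhead consensus was present in 9 of the 20 best ranked receptor regions and in 17 of the other 33. It was present in 55.2% of the 29 receptor regions left when peaks had to reach a −log10 q of 5. With a required fold enrichment of 5, the share was 46.7% of 15 regions. Whether the stronger regions held it more or less often thus depended on the cut. The AP-1 consensus, which is its own reverse complement and so matches both strands at the same place, was present in 6 regions (11.3%, 4.27 to 23%), against 16.6% elsewhere. AGGTCA, searched on both strands, was present in 2 (3.77%, 0.460 to 13.0%) and at 5 control positions (9.43%, 3.13 to 20.7%), against 6.92% and 6.83% elsewhere. Of the 53 regions, 2 held both the forkhead and the AP-1 sequence and 23 held neither.

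**Figure D5:**
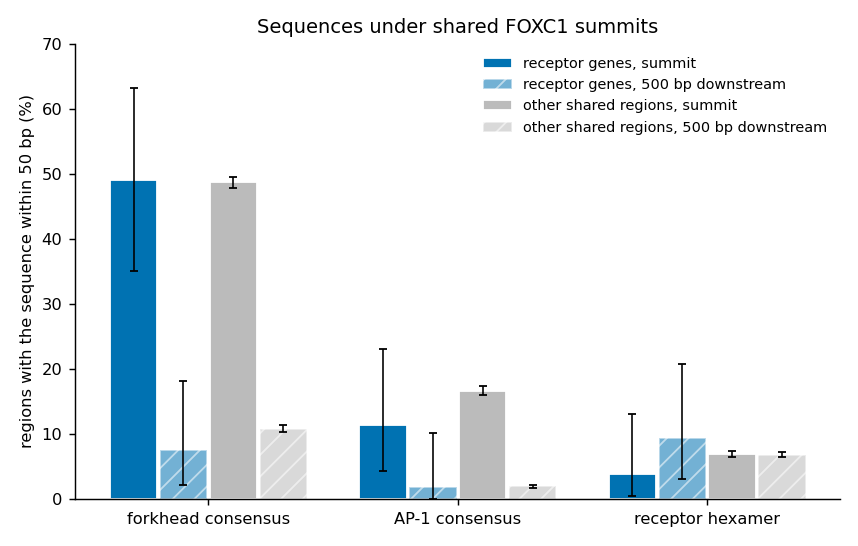
Share of regions (vertical axis, percent) with the forkhead consensus, the AP-1 consensus or the receptor hexamer within 50 bp of the summit (solid bars) or of a position 500 bp downstream (hatched bars), for the 53 receptor regions (blue) and the other 13185 shared regions (grey), with exact 95% binomial intervals. The forkhead share is 49.1% at receptor summits and 48.7% at other summits, and lower at the downstream positions in both.

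Of the 90 replicate 1 peaks in receptor windows, 53 (58.9%) were shared, against 59.8% in all protein-coding windows, and of the 161 replicate 2 peaks 53 (32.9%) were shared, against 30.5%. The 37 replicate 1 peaks without a partner had low values, at most 3.28-fold (median 2.61), and 0 of them had a −log10 q of at least 5. Of 9013 such peaks elsewhere, with the same median of 2.61, 29 did. The 108 replicate 2 peaks without a partner reached 7.25, with a median of 3.27, and 27 of them had a −log10 q of at least 5. Of 28417 such peaks elsewhere, with a median of 3.18, 6662 did. Among the 27 in receptor windows were peaks at RARB (7.25, 39 reads), ESRRG (7.22, 39 reads), THRB (7.08, 49 reads) and NR3C1 (6.37, 44 reads). A replicate 2 peak 371 bp downstream of an NR1H3 start had 6.83, and a replicate 2 peak 48 bp upstream of an NR2C2 start had 5.51, so some unshared peaks also lay at starts. Forkhead matches were present at 31.5% (22.9 to 41.1%) of the replicate 2 peaks without a partner, against 33.3% of such peaks elsewhere, and at 18.9% of those of replicate 1, against 14.7%. These shares were below that of the shared regions in both lists.

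Genes that act with the receptors were counted in the same way. Coregulators, the proteins that receptors recruit to activate or repress transcription, held a shared region at 10 of 18 genes (55.6%), led by NCOA7 with 6 and PPARGC1A with 4 shared regions, and followed by CREBBP, NCOA2, NCOA6 and TBL1XR1 with 2 each. Genes for the synthesis, transport and breakdown of ligands held a shared region at 7 of 26 (26.9%), led by CYP24A1, the vitamin D hydroxylase, with 3, and by ALDH1A1 and DHRS3, enzymes of retinoid metabolism, with 2 each. Genes known to respond to receptors held a shared region at 10 of 16 (62.5%), led by ABCA1, the cholesterol transporter, with 4, and by DUSP1, FKBP5, PER1 and SGK1 with 2 each. These shares stood beside 33.0% of all protein-coding genes, but the windows differed in length, with medians of 190 kb for coregulators, 61.5 kb for ligand genes and 92.5 kb for response genes. Of 14 coregulators with windows over 100 kb, 9 held a shared region, against 56.1% of protein-coding genes with such windows, and of the other 4 coregulators 1 did, against 23.6%. At a −log10 q of 5 in both replicates, 8 coregulators (44.4%), 5 ligand genes (19.2%) and 4 response genes (25%) held a region, against 20.2% of protein-coding genes, so ligand and response genes were then near the background.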

How the data were processed

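FOXC1 ChIP-seq and input were available for 2 replicates each of J82 cells, and samples were grouped by their titles. Reads had been mapped to hg19 with BWA and peaks called against input with MACS2 2.2.7.1, and the submitters' processing notes also name bedtools. The files held peak coordinates and summits. The score deposited by the authors was a whole number that MACS2 derives from the −log10 p. The fold enrichment deposited by the authors is a ratio of summit pileup to local background, and the −log10 p and −log10 q deposited by the authors test that pileup against the same background. The reproducible peak set and the input files were not analysed here. No read totals were given, so whole reads were solved from fold enrichment and −log10 p (residual under 0.001), which succeeded for 100% of peaks in both lists, and total reads rest on a genome size of 2.7 Gb. The genome-wide background pileup was 4.16 in replicate 1 and 3.75 in replicate 2, where pileup values were scaled by 0.904, and reads are given unscaled.

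Peaks on chromosomes 1 to 22, X and Y were kept, 22405 of 22447 and 41789 of 41832. Overlap by at least 1 bp made peaks shared, and summits of shared regions were placed midway between those of the best peaks. Gene models came from GENCODE version 44 on GRCh37, whereas the study used an older version, not used here. A peak counted for a gene if its summit lay within 20 kb of the gene body, and a promoter reached 2 kb from a start. Distances are to the nearest annotated start of the gene's own transcripts. Sequences were searched on both strands within 50 bp of summits. Binomial intervals are Clopper-Pearson (95%). Full values are given for the 20 best ranked receptor regions and for the strongest region of the members with most shared regions, where ties at 3 made 8 members. The 3 genes with most shared regions, with ties, are named for the other lists. Members and lists were chosen with earlier results of these data known, and some details named beyond this rule were chosen after their values were seen. No test was made, because there was 1 condition and the genes were a chosen list. Python 3.11.15, NumPy 2.4.6, SciPy 1.17.1 and pandas 2.3.3 were used, and the recovery of reads and the counting were tested on simulated data.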

Additional observations from a re-analysis of the deposited data

How the results depend on the processing

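Under the alternative settings, 70 recomputed values stayed within a set limit and 22 moved further. The limit was 1.5 times for counts, densities and the share of protein-coding genes. It was the SD between the medians of both replicates for fold enrichments, and the binomial interval for shares of regions. The 70 include the share of protein-coding genes without NR1D2, THRB and RARB, which that setting could not change. Requiring a −log10 q of 5 in each list left 29 shared regions in receptor windows (3.63 per Mb), a replicate 2 median of 8.80-fold, and 20.2% of protein-coding genes with a region. Requiring a fold enrichment of 5 left 11 receptor genes with 15 regions (1.88 per Mb), with medians of 8.98 and 20.2, and 13.5% of protein-coding genes. With the gene body alone, 20% of protein-coding genes held a region. A promoter distance of 5 kb gave 45.3% of receptor regions in promoters, and GTAAACA gave 20.8% in place of RTAAAYA. Leaving out NR1D2, THRB and RARB left 34 regions. That setting and the canonical transcript span were added after seeing the data. Without either replicate, the single list left gave 30 to 35 receptor genes, 90 to 161 peaks (11.3 to 20.2 per Mb), 47.0 to 66.2% of protein-coding genes and a forkhead share of 33.3 to 37.9%, and the replicate 2 peaks in receptor windows had a median of 3.82-fold. No paired analysis was possible because no test between groups was made and the input files were not analysed here. Weak peaks limited the lists, with a median of 18 reads over replicate 1 summits, and a gene without a peak may lie below what this depth could detect.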

Other observations

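The 23 receptor genes without a shared region in their windows differed in how far the nearest shared region lay. It was within 50 kb of the gene body for 6 genes, within 100 kb for 10 and beyond 100 kb for 13, with a median of 139 kb. NR1I2, the xenobiotic sensor PXR, had a region 23.5 kb away that was enriched 7.98-fold in replicate 1 and 10.3-fold in replicate 2. RORB had a region 67.4 kb away with 9.76 and 12.6, and 71 and 138 reads. The region nearest to NR4A2, at 241 kb, had 10.7 and 11.2. NR0B1 was the farthest, at 641 kb, from a region with 4.07 and 8.58. These distances were not measured for other protein-coding genes without a region, so they only describe the receptor list. To which gene the regions beyond the windows belong was not tested.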
